A study of Mus musculus with 5 samples.

Results

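Cytochrome P450 genes outside the Cyp1 family were followed through 5 RNA-seq libraries of mouse visceral adipose tissue, the fat of the abdominal cavity. Members were all genes whose symbol has the form Cyp, family number, letter and gene number. The Cyp1 family and the aromatase gene were left out, as were pseudogene symbols. The rule used names alone, no measured value. Of 93 symbols of that form, 4 were excluded, which left 89 genes among the 78334 in the count table. All animals were male C57BL/6 mice. The control group (1 library) ate standard chow and received vehicle. The obesity group (2 libraries) was started at 8 weeks of age on a high-fat diet with 60% of its energy as fat, and received vehicle after 8 weeks of that diet. The resveratrol group (2 libraries) had the same diet and was given 2.25 mg/kg of the grape-skin stilbene resveratrol through a gastric tube. Dosing was daily, began at 16 weeks of age and lasted 28 days, so tissue was taken 12 weeks after the diet began. Whether each library came from its own mouse is not stated in the labels, so each p-value measures the spread between these libraries, which may be technical.

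P450 enzymes hold a heme iron and insert 1 atom of molecular oxygen into a substrate. Those in the endoplasmic reticulum take electrons from P450 oxidoreductase (Por), and those in mitochondria from adrenodoxin (Fdx1) and its reductase (Fdxr). The family is best known in liver, adrenal and gonad, where it clears drugs and makes bile acids and steroid hormones. In adipose tissue its members act on fatty acids, arachidonic acid, retinoic acid, vitamin D and cholesterol, and stored fat also takes up many of the foreign compounds that other members oxidise.

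The libraries held 19540961 to 27026597 counts. Values are CPM, depth-scaled read counts adjusted with TMM factors, and comparisons are differences of log2 values from edgeR's quasi-likelihood F test over all tested genes. The libraries did not all carry the markers of their labelled tissue alike. Summed over 10 adipocyte markers, levels were 22093 and 24063 CPM in the obesity pair and 24040 CPM in resveratrol 2, but 463 CPM in the control library and 5945 CPM in resveratrol 1. No adipocyte marker was at 0 in any library. Summed over 12 epididymis markers, levels were 63773 CPM in the control library, with no marker at 0, and 0.238 to 22.5 CPM in the obesity pair and resveratrol 2, where 2 to 10 of the markers were at 0. Resveratrol 1 had 3399 CPM, of which Crisp1 alone gave 3397 CPM, while the other 11 markers summed to 2.27 CPM and 4 were at 0. Summed over 8 smooth muscle markers, resveratrol 1 was at 53642 CPM and the other 4 libraries at 527 to 2603 CPM. The control library, the only 1 of its group, and resveratrol 1 thus stand apart, and every comparison below rests on at least 1 of them. Obesity 1 also differed from obesity 2, at 412 against 4.14 CPM over 5 urothelium markers and 204 against 10.5 CPM over 6 brown adipocyte markers. The part of these markers in the P450 differences was not tested, and in bulk tissue fewer cells of a type and less RNA per cell cannot be told apart.

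Of the 89 genes, 22 reached at least 5 CPM in some library, 13 peaked between 1 and 5 CPM, and 54 stayed below 1 CPM everywhere. Of those 54, 22 had no count in any library. The filter on low counts kept 43 members for testing, among them all 22 of the upper tier. Members with at least 10 counts numbered 36 in the control library, 26 and 23 in the obesity pair, and 28 and 32 in the resveratrol pair, while the share of all genes in the table with as many was 29.3%, then 23.0% and 22.9%, then 24.8% and 24.2%. Summed over the family, expression was 332 CPM in the control library, 677 and 906 CPM in the obesity pair, and 422 and 780 CPM in the resveratrol pair. A single gene, Cyp2e1, carried much of that spread: it gave 6.08% of the family's CPM in the control library, 26.3% and 48.5% in the obesity pair, and 26.8% and 27.1% in the resveratrol pair. Without it the sums were 311 CPM in the control library, 499 and 467 CPM under obesity, and 309 and 569 CPM under resveratrol.

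Levels of different genes were compared per kilobase of exon. On that scale Cyp2e1 led in all 4 libraries from mice on the high-fat diet, at 82.4 and 203 CPM per kilobase under obesity and 52.3 and 97.9 CPM per kilobase under resveratrol. In the control library the order was another: Cyp27a1 led at 16.6 CPM per kilobase, then Cyp4f13 at 12.8, Cyp17a1 at 11.4 and Cyp4f15 at 9.69, with Cyp2e1 at 9.34 CPM per kilobase. Behind Cyp2e1, the obesity pair had Cyp4v3 at 27.7 and 30.4, Cyp27a1 at 29.2 and 24.2, and Cyp4b1 at 22.5 and 28.6 CPM per kilobase. These 3 lie too close to be ranked, since their order differed between the 2 libraries.

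**Figure D1:**
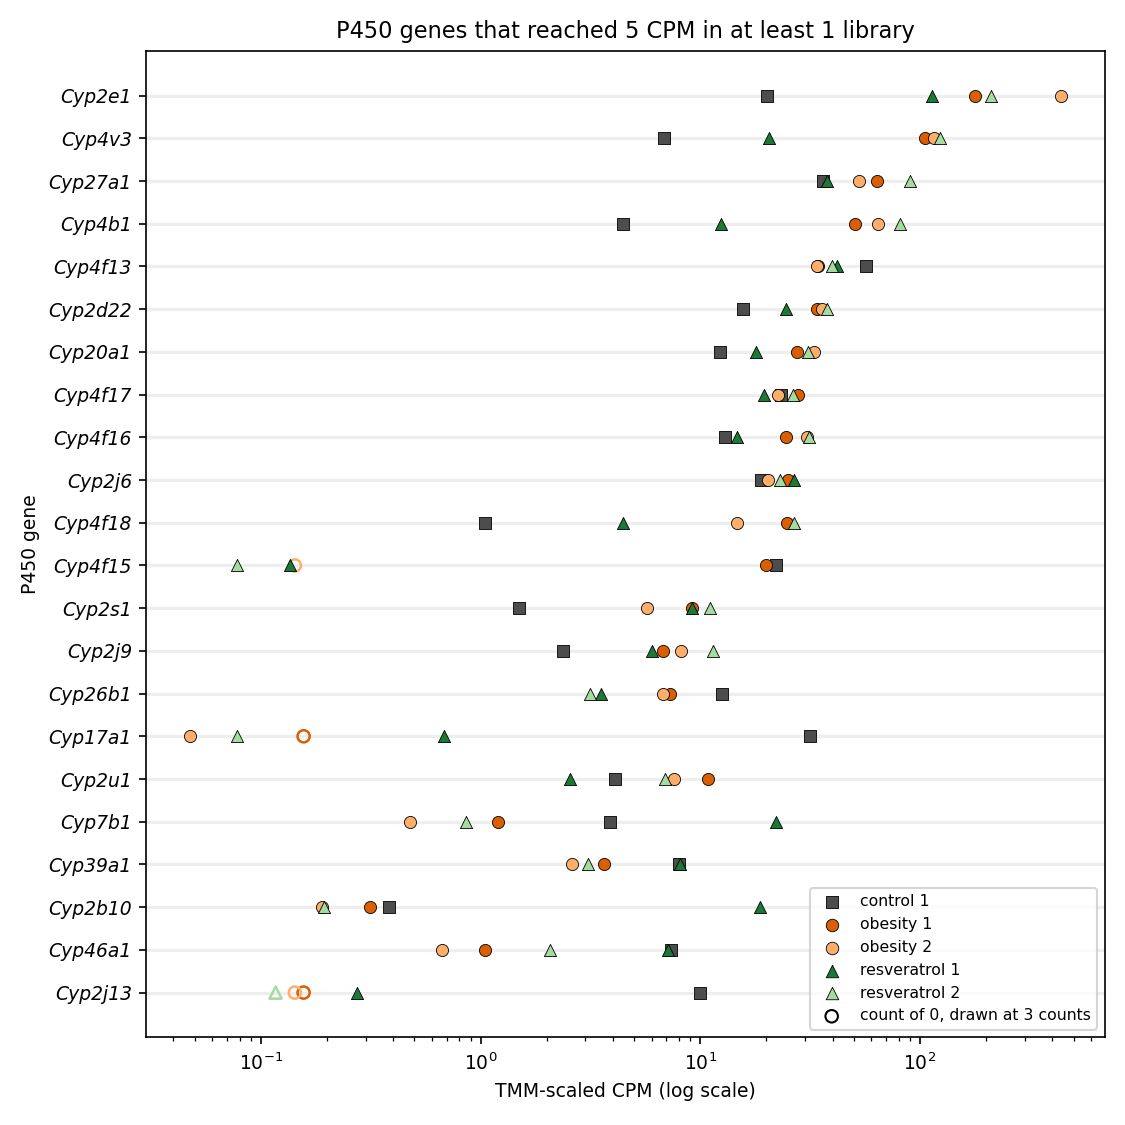
Level of each of the 22 P450 genes that reached at least 5 CPM, in each of the 5 libraries (CPM on a log axis, 1 point per library). Open symbols are libraries without a count, drawn at the floor of 3 counts. Cyp2e1 spans 20.2 CPM in the control library to 439 CPM in obesity 2, and several genes, such as Cyp17a1 and Cyp2b10, are high in 1 library alone.

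Promoters of 6 members were picked, after their values were seen, for unlike patterns over the libraries: Cyp2e1, Cyp4v3 and Cyp4b1 were low in the control library, Cyp2b10 was high in a single library, and Cyp4f15 and Cyp4f13 are members of 1 gene cluster with unlike patterns. Each is the run of 250 bases before the RefSeq start, 5′ to 3′ on the gene's strand (build GRCm38.p6), at chr7:140763569-140763818 (+) for Cyp2e1, chr8:45333164-45333413 (-) for Cyp4v3, chr4:115647722-115647971 (-) for Cyp4b1, chr7:25897408-25897657 (+) for Cyp2b10, chr17:32685409-32685658 (+) for Cyp4f15 and chr17:32947362-32947611 (-) for Cyp4f13. Capitals mark matches, on either strand, to the TATA box TATAAA, the CCAAT box CCAAT, the GC box GGGCGG or AGGTCA, the core motif bound by many nuclear receptors.
Cyp2e1: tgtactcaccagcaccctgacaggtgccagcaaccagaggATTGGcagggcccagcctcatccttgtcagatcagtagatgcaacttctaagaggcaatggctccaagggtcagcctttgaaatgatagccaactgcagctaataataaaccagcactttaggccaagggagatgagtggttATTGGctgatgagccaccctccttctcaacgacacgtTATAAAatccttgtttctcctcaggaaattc
Cyp4v3: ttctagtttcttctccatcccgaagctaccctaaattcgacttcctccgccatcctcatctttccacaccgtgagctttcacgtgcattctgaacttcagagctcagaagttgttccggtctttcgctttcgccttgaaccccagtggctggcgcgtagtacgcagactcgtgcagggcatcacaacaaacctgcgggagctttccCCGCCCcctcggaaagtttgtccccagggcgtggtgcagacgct
Cyp4b1: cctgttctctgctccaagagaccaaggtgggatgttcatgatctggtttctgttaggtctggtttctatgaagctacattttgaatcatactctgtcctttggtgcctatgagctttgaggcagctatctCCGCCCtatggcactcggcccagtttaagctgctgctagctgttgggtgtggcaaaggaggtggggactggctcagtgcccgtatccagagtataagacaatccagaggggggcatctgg
Cyp2b10: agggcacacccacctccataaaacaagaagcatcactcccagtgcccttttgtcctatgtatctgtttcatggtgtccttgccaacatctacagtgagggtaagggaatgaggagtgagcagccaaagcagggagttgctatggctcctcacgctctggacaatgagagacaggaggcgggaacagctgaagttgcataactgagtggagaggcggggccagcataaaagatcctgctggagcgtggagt
Cyp4f15: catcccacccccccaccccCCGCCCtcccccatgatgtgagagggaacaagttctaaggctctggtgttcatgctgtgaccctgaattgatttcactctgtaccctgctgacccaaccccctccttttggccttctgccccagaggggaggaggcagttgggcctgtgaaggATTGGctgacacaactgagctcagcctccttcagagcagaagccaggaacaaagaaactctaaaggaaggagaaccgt
Cyp4f13: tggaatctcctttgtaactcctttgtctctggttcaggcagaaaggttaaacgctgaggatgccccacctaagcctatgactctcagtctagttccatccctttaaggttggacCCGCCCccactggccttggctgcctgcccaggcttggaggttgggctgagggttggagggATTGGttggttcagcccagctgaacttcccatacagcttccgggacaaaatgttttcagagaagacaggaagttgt

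Of the 22 upper-tier genes, 16 had a promoter in the RefSeq table. The Cyp2e1 promoter held a TATA box starting 31 bases before the start and CCAAT boxes at 68 and 210 bases, Cyp4v3 and Cyp4b1 each held a GC box, at 44 and 120 bases, Cyp4f15 and Cyp4f13 each held a CCAAT box and a GC box, and Cyp2b10 held none of the motifs. TATAAA was present in 2 of the 16 promoters and in 14.3% of 27025 promoters of all genes. CCAAT was present in 8 of 16 against 37.5% of all, GGGCGG in 12 of 16 against 35.4%, and AGGTCA in 0 of 16 against 15.8%. The sets are unlike, since the 16 were chosen for reaching 5 CPM and the 27025 were not chosen by expression. The motifs did not overlap in spelling, and a match describes letters in the window, not a bound site.

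Members of families 2 and 3 outside the fatty acid group, known mostly for oxidising drugs and other foreign compounds, numbered 30, of which 4 reached 5 CPM. Their summed level was 43.5 CPM in the control library, 226 and 482 CPM under obesity, and 168 and 265 CPM under resveratrol. Cyp2e1, which oxidises ethanol, acetone and other small molecules and is induced in liver by fasting and obesity, stood at 20.2 CPM in the control library, 178 and 439 CPM in the obesity pair, and 113 and 211 CPM in the resveratrol pair. All 4 libraries from high-fat fed mice lay above the control library, while the obesity and resveratrol ranges overlapped. Group means were 308 ± 185 CPM (SD, n = 2) under obesity and 162 ± 69.6 CPM (SD, n = 2) under resveratrol.

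Cyp2d22, a member of the drug-metabolising Cyp2d subfamily, came to 15.6 CPM in the control library, 33.9 and 35.7 CPM under obesity, and 24.7 and 37.6 CPM under resveratrol. Cyp2s1, a P450 of epithelia and immune cells, had 1.5 CPM in the control library, 9.13 and 5.71 CPM under obesity, and 9.13 and 11.1 CPM under resveratrol. Both were lowest in the control library. Cyp2b10, the gene next to Cyp2s1 and the mouse gene classically induced through the receptor CAR (Nr1i3), was at 18.7 CPM in resveratrol 1 (411 counts, exact Poisson 95% interval 16.9 to 20.6 CPM) and at 0.190 to 0.384 CPM in the other 4 libraries. Nr1i3 itself was at 0.143 CPM or less in every library. The high Cyp2b10 level was thus seen in 1 of 2 resveratrol libraries, the 1 that also stood at 53642 CPM for smooth muscle markers. The remaining members were low: Cyp2f2 ranged from 0.286 to 2.03 CPM, Cyp2b23 from 0.209 to 1.46 CPM, Cyp2d9 from 0 to 1.39 CPM and Cyp2t4 from 0.381 to 1.04 CPM. Members of Cyp3a, the main drug-oxidising subfamily of the liver, had no count in the control library and summed to at most 1.10 CPM elsewhere. Of the Cyp2d9 transcript, 9.86% of 100-base windows also occur in another gene, mostly Cyp2d10, so its reads could be split.

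**Figure D2:**
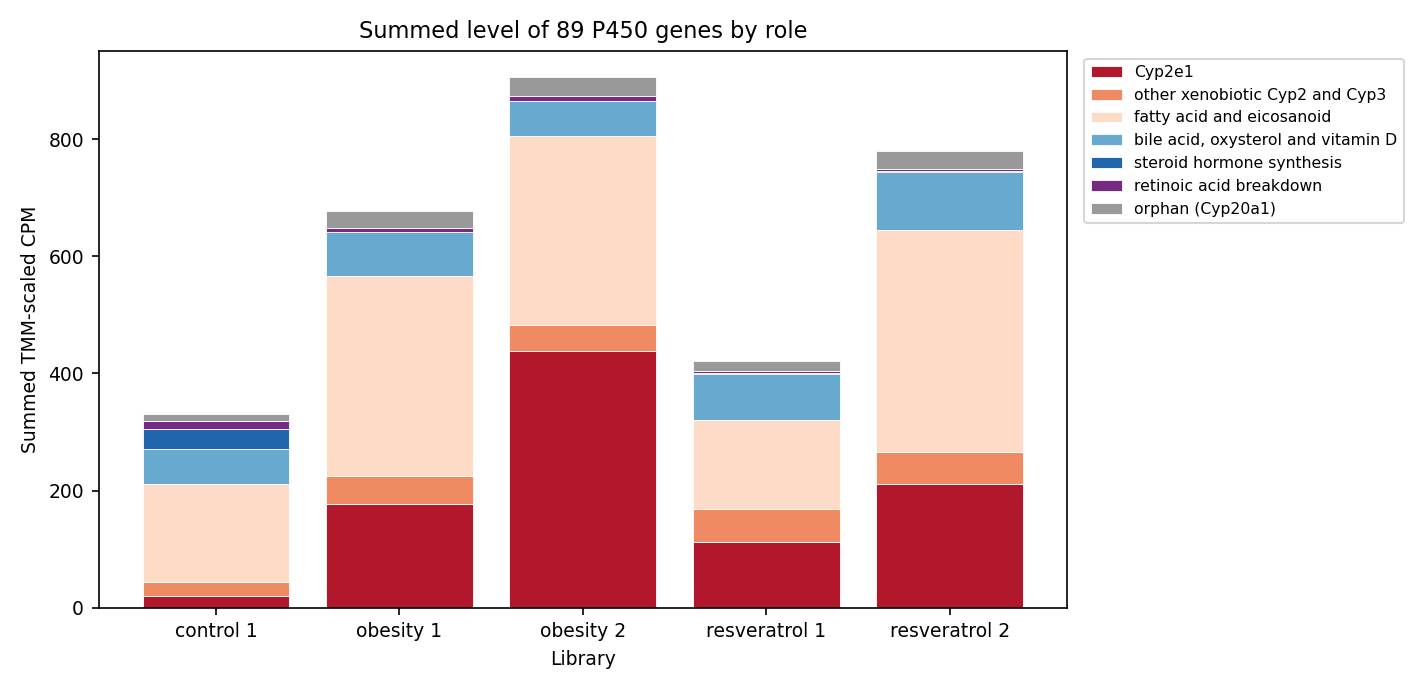
Summed level of the P450 genes in each role group, by library, as stacked bars on a linear axis from 0 with Cyp2e1 drawn apart from the other xenobiotic genes. The control library holds 34.4 CPM of steroid synthesis genes against 0.0952 to 1.68 CPM in the other 4, and 43.5 CPM of the xenobiotic group against 168 to 482 CPM.

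Hydroxylases and epoxygenases of fatty acids and eicosanoids formed the broadest group, with 41 genes, 11 of them at 5 CPM or more. Their sum was 168 CPM in the control library, 341 and 324 CPM under obesity, and 152 and 379 CPM under resveratrol. Cyp4v3, a fatty acid omega-hydroxylase whose human counterpart is mutated in Bietti crystalline dystrophy of the retina, stood at 6.83 CPM in the control library, 105 and 116 CPM under obesity, and 20.5 and 124 CPM under resveratrol. Cyp4b1, which hydroxylates medium-chain fatty acids, came to 4.46 CPM in the control library, 50.8 and 64.6 CPM under obesity, and 12.4 and 81.3 CPM under resveratrol. Cyp4f18, a hydroxylase of leukotriene B4 found in myeloid cells, had 1.05 CPM in the control library, 24.7 and 14.8 CPM under obesity, and 4.45 and 26.6 CPM under resveratrol.

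These 3 genes share an order of libraries: the control library lowest, resveratrol 1 next, and the obesity pair and resveratrol 2 above both. That order is not particular to them, since Cyp2e1, Cyp27a1, Cyp2d22, Cyp20a1, Cyp4f16 and Cyp2j9 had it too. The resveratrol means of the 3 carried SDs as large as themselves, 72.2 ± 73.1 CPM for Cyp4v3, 46.8 ± 48.7 CPM for Cyp4b1 and 15.5 ± 15.6 CPM for Cyp4f18 (SD, n = 2 each). The adipocyte marker sum given above has the control library and resveratrol 1 at its low end too. So has the sum of 8 macrophage markers, at 104 CPM in the control library, 1569 and 1583 CPM under obesity, and 295 and 1595 CPM under resveratrol, with none at 0 in any library. Summed over 5 endothelium markers, again with none at 0, levels were 90.2 CPM (control), 423 and 400 CPM (obesity), and 126 and 759 CPM (resveratrol), with the control library and resveratrol 1 lowest again. The part of these 3 cell types in these levels was not tested. Of Cyp4v3 100-base windows 5.77% also occur in another gene, and of Cyp4b1 4.46%, in its pseudogene Cyp4b1-ps1.

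The Cyp4f cluster was not uniform. In the annotation its protein-coding members follow each other as Cyp4f39, Cyp4f17, Cyp4f16, Cyp4f37, Cyp4f40 and Cyp4f15, and, past a run of other genes, Cyp4f14 and Cyp4f13, while Cyp4f18 lies elsewhere. Cyp4f13 was highest in the control library at 57.0 CPM, with 34.4 and 34 CPM under obesity and 42.0 and 39.7 CPM under resveratrol. Cyp4f16 was lowest there at 13.0 CPM, with 24.5 and 30.6 CPM under obesity and 14.8 and 31.2 CPM under resveratrol. Cyp4f17 stayed within 19.5 to 27.8 CPM in all 5 libraries, the control library among them at 23.4 CPM. So 3 members of 1 cluster had 3 unlike orders of libraries. For Cyp4f16, 9.80% of 100-base windows also occur in another gene, mostly Cyp4f37.

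Cyp4f15 divided the obesity pair. The control library held 634 counts, or 22.1 CPM (95% interval 20.4 to 23.9 CPM), and obesity 1 held 383 counts, or 20.0 CPM (95% interval 18.0 to 22.1 CPM). In obesity 2 no count was found, where 3 counts would be 0.143 CPM, and the resveratrol pair had 0.136 and 0.0778 CPM, from 3 and 2 counts. It was the 1 gene of the 22 whose obesity libraries differed by at least 4-fold, beside 2.98% of all genes that reached 5 CPM. Summed over 5 urothelium markers, the same libraries stood at 168 CPM (control), 412 CPM (obesity 1), 4.14 CPM (obesity 2), 59.6 CPM (resveratrol 1) and 27.9 CPM (resveratrol 2). All 5 were highest in obesity 1. Of the control library's sum, the uroplakin genes Upk1b and Upk1a gave 76.5 and 32.8 CPM and Krt5, a keratin of basal epithelium, 57.3 CPM, while Upk2 and Upk3a were at 0.697 and 0.837 CPM there. In obesity 2, 3 of the 5 were at 0. The part of urothelium in the Cyp4f15 level was not tested. Of the other cluster members, Cyp4f39 and Cyp4f40 spanned 0.227 to 3.91 CPM and 0 to 1.39 CPM.

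**Figure D3:**
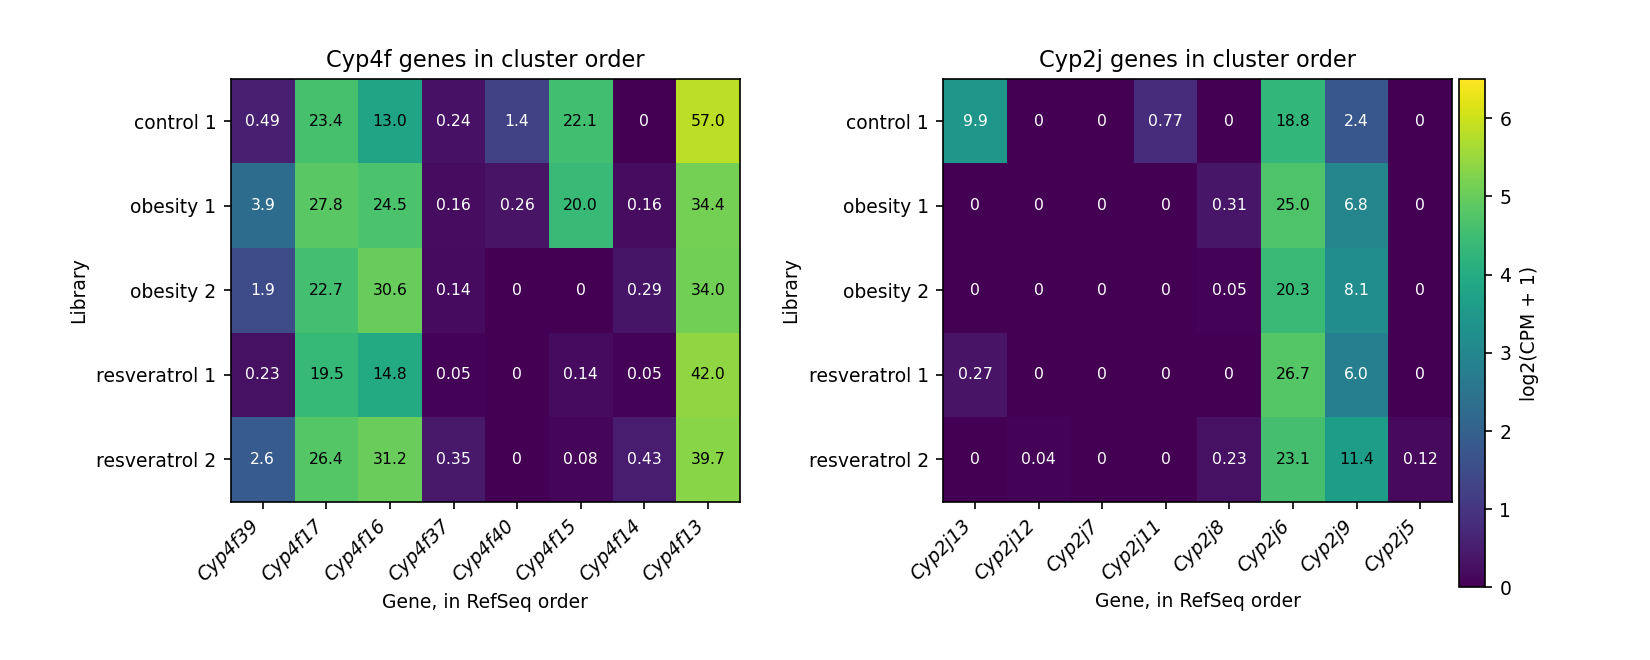
Levels of the Cyp4f and Cyp2j genes in annotation order, with 1 row per library and 1 column per gene. The number in each square is the CPM and its colour is log2(CPM + 1). Genes of 1 cluster take different orders of libraries. Cyp4f15 has 22.1 CPM (control) and 20.0 CPM (obesity 1) but at most 0.136 CPM elsewhere, while Cyp4f17 stays between 19.5 and 27.8 CPM.

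Among the Cyp2j epoxygenases, which turn arachidonic acid into epoxides, Cyp2j6 stayed between 18.8 and 26.7 CPM in all libraries. The neighbouring Cyp2j9 stood at 2.37 CPM in the control library, 6.78 and 8.14 CPM under obesity, and 6.00 and 11.4 CPM under resveratrol. Cyp2j13, at the far end of the cluster, came to 9.94 CPM in the control library (285 counts), had no count in either obesity library or in resveratrol 2, and had 6 counts, 0.273 CPM, in resveratrol 1. The control library, which had most of the Cyp2j13 counts, also had the highest epididymis marker sum, 63773 CPM. Obesity 1, with no Cyp2j13 count, had 22.5 CPM of these markers other than Crisp1, and resveratrol 1, with 6 counts, had 2.27 CPM. The part of epididymis in the Cyp2j13 level was not tested. Cyp2u1, a hydroxylase of long-chain fatty acids, had 4.08 CPM in the control library, 10.8 and 7.62 CPM under obesity, and 2.54 and 6.89 CPM under resveratrol. Cyp2c23, an epoxygenase best known in kidney, had no count in the control library, 3.96 and 1.67 CPM under obesity, and 0.182 and 2.45 CPM under resveratrol. Cyp2c70, which makes muricholic acids in mouse liver, ranged from 0 to 1.67 CPM, Cyp4x1 from 0 to 1.39 CPM, and Cyp4a14, a target of PPAR-alpha in liver, from 0.0476 to 1.18 CPM.

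Enzymes of bile acids, oxysterols and vitamin D numbered 9, of which 4 reached 5 CPM, and their sum ran from 59.1 CPM in the control library to 99.9 CPM in resveratrol 2. Cyp27a1, the mitochondrial sterol 27-hydroxylase that opens the acidic route to bile acids, stood at 36.1 CPM in the control library, 63.5 and 52.6 CPM under obesity, and 37.8 and 90.3 CPM under resveratrol. Cyp7b1, the oxysterol 7-alpha-hydroxylase, was at 22.1 CPM in resveratrol 1 (486 counts, 95% interval 20.2 to 24.1 CPM), 0.856 CPM in resveratrol 2, 1.2 and 0.476 CPM under obesity and 3.87 CPM in the control library. Its resveratrol mean of 11.5 ± 15 CPM (SD, n = 2) thus rests on 1 library. Cyp46a1, the cholesterol 24-hydroxylase best known in neurons, came to 7.39 CPM in the control library, 1.04 and 0.666 CPM under obesity, and 7.13 and 2.06 CPM under resveratrol. Cyp39a1, which hydroxylates the product of Cyp46a1, had 7.99 CPM in the control library, 3.65 and 2.62 CPM under obesity, and 8.04 and 3.07 CPM under resveratrol. Cyp7b1, Cyp46a1 and Cyp39a1 had in common that the obesity pair lay below the control library and below resveratrol 1. Cyp4f13, Cyp17a1, Cyp2j13 and Cyp2b10 shared this, so it is not particular to these enzymes. Of the vitamin D enzymes, the 25-hydroxylase Cyp2r1 ranged from 2.71 to 4.85 CPM, and the 1-alpha-hydroxylase Cyp27b1 was at most 0.727 CPM.

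The 5 genes of steroid hormone synthesis had their highest total in the control library, 34.4 CPM, beside 0.0952 to 1.68 CPM elsewhere. Nearly all of the control library's total was Cyp17a1, the 17-alpha-hydroxylase and 17,20-lyase needed for androgens. It stood at 31.7 CPM there (908 counts, 95% interval 29.6 to 33.8 CPM). The obesity pair held 0 counts and 1 count of it, and the resveratrol pair 15 and 2 counts, 0.681 and 0.0778 CPM. Cyp11a1, which starts steroid synthesis from cholesterol, stood at 2.75 CPM in the control library, 0.261 and 0.0476 CPM under obesity, and 0.772 and 0.972 CPM under resveratrol. Cyp11b1 and Cyp11b2, the last steps to corticosterone and aldosterone, had no count in any library, and the 21-hydroxylase Cyp21a1 at most 0.227 CPM. Summed over 7 markers of Leydig and adrenal cortex cells, the control library stood at 12.1 CPM, with 3 markers at 0, and the other libraries at 11.4 to 45.9 CPM. Most of the sum in the obesity pair and resveratrol 2 was Mc2r, the corticotropin receptor, and without it the control library stood at 11.9 CPM, the obesity pair at 5.11 and 8.43 CPM, and the resveratrol pair at 8.13 and 15.9 CPM. Star, which carries cholesterol into mitochondria, was at 9.31 CPM in control 1, 2.61 and 4.47 CPM under obesity, and 6.63 and 11 CPM under resveratrol, and Insl3 ranged from 1.36 to 4.78 CPM. Hsd3b1 and Hsd3b6 were at 0 in the control library, Nr5a1, the factor that drives their genes, likewise, and Hsd17b3 was at 0.244 CPM. The 5-alpha-reductase gene Srd5a2 did have the same order of libraries, with 123 CPM in the control library, 0 in both obesity libraries, and 6.81 and 0.0778 CPM under resveratrol. The control library, which held nearly all Cyp17a1 and Srd5a2 counts, also held nearly all of the epididymis marker sum. Obesity 1 had no count of either gene and 22.5 CPM of the markers, beside 63773 CPM in the control library. Resveratrol 1, with 0.681 CPM of Cyp17a1 and 6.81 CPM of Srd5a2, had 2.27 CPM of the markers other than Crisp1. The part of epididymis in the Cyp17a1 and Srd5a2 levels was not tested.

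Retinoic acid breakdown was carried mainly by Cyp26b1 among its 3 genes. It came to 12.6 CPM in the control library, 7.30 and 6.76 CPM under obesity, and 3.54 and 3.15 CPM under resveratrol. The groups did not overlap in either step, and the pairs agreed closely, with means of 7.03 ± 0.385 CPM under obesity and 3.35 ± 0.278 CPM under resveratrol (SD, n = 2 each). Cyp26a1 ranged from 0 to 1.12 CPM. Among genes that make retinoic acid, Aldh1a1 had 863 CPM in the control library, 101 and 131 CPM under obesity, and 181 and 189 CPM under resveratrol, and Aldh1a3 stood at 2.72 CPM in the control library, 9.29 and 3.67 CPM under obesity, and 20.5 and 25.6 CPM under resveratrol. Cyp20a1, a P450 with no settled substrate, came to 12.3 CPM in the control library, 27.5 and 32.8 CPM under obesity, and 17.9 and 31.0 CPM under resveratrol.

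With obesity against control, which asks what the high-fat diet changed, no P450 gene passed. At an adjusted p under 0.05 (edgeR's quasi-likelihood test, Benjamini-Hochberg), 0 of 43 tested members were called, and 0.0% of all 24779 tested genes. The smallest adjusted p was 0.175 among the members. At an unadjusted p under 0.05 there were 11 of 43 members, against 24.3% of all genes. Of these, 6 were higher under obesity, where the share over all genes was 12.6%, and 5 were lower, where it was 11.7%. Both obesity libraries lay above the control library for 17 members (40.8% of all genes) and below it for 21 (48.6%). By sign alone, 22 members were higher and 21 lower, against 46.9% and 52.7% of all genes. The median difference was 0.01 over the members and -0.10 over all tested genes on the log2 scale. The family's counts were near those of all genes.

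The higher members by smallest p were Cyp2e1 (log2 difference 3.94, SE 0.919, adjusted p 0.182), Cyp2s1 (2.30, SE 0.619, adjusted p 0.182), Cyp4v3 (4.02, SE 1.34, adjusted p 0.196) and Cyp4f18 (4.23, SE 1.44, adjusted p 0.197). Cyp2c23, with no count in the control library, was at least 26.9-fold higher, with the control library set to its floor of 3 counts (adjusted p 0.196). Of the lower members Cyp17a1 had the smallest p, 0.00411 (adjusted p 0.175). Its ratio of control to obesity counts was 1272, but it rests on 1 count in the obesity pair and its 95% counting interval runs from 228 to 50299. Cyp2j13 was at least 66.4-fold lower against the floor (adjusted p 0.184), and Cyp46a1 was lower by a log2 difference of -3.11 (SE 0.950, adjusted p 0.186). Cyp4f13, at -0.74 (SE 0.259, adjusted p 0.200), and Cyp26b1, at -0.84 (SE 0.464, adjusted p 0.299), were lower by less than 2-fold.

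How many members pass differed with the libraries and the tool used. Over all tested genes the biological coefficient of variation was 58.2% within the resveratrol pair and 21.8% within the obesity pair. In a fit that leaves out 1 or both resveratrol libraries, the spread rests on the obesity pair alone. Such fits share that pair and the control library, so agreement among their calls is not independent support. With only the control and obesity libraries fitted, 17 of 37 tested members were called, and 39.4% of all genes. Leaving out resveratrol 1 alone gave 17 of 42 (37.9% of all genes), leaving out resveratrol 2 alone gave 17 of 40 (37.3%), and DESeq2 over all 5 libraries gave 10 of 36 (20.2%). A fit with no filter on low counts called 4 of 67 members and 5.92% of all genes. With limma-voom, 0 of 43 members and 0.0% of all genes were called. A stricter filter, median-ratio size factors and a fit that is not robust also called 0 members and 0 genes. Of the members, 16 were called in all 3 fits that leave out resveratrol libraries: Cyp4v3, Cyp4b1, Cyp4f16, Cyp4f18, Cyp20a1, Cyp2c23, Cyp2c70, Cyp2d22, Cyp2j9 and Cyp2s1 as higher under obesity, and Cyp11a1, Cyp17a1, Cyp2j13, Cyp46a1, Cyp4f13 and Cyp4x1 as lower. That is 16 of the 37 members tested in all 3 fits, beside 37.7% of all genes tested in them. Of the 16, DESeq2 also called 9, beside 48.8% of all genes called in the 3 fits. Cyp2e1, whose obesity libraries stood at 178 and 439 CPM, was called by DESeq2 but in none of those 3 fits.

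**Figure D4:**
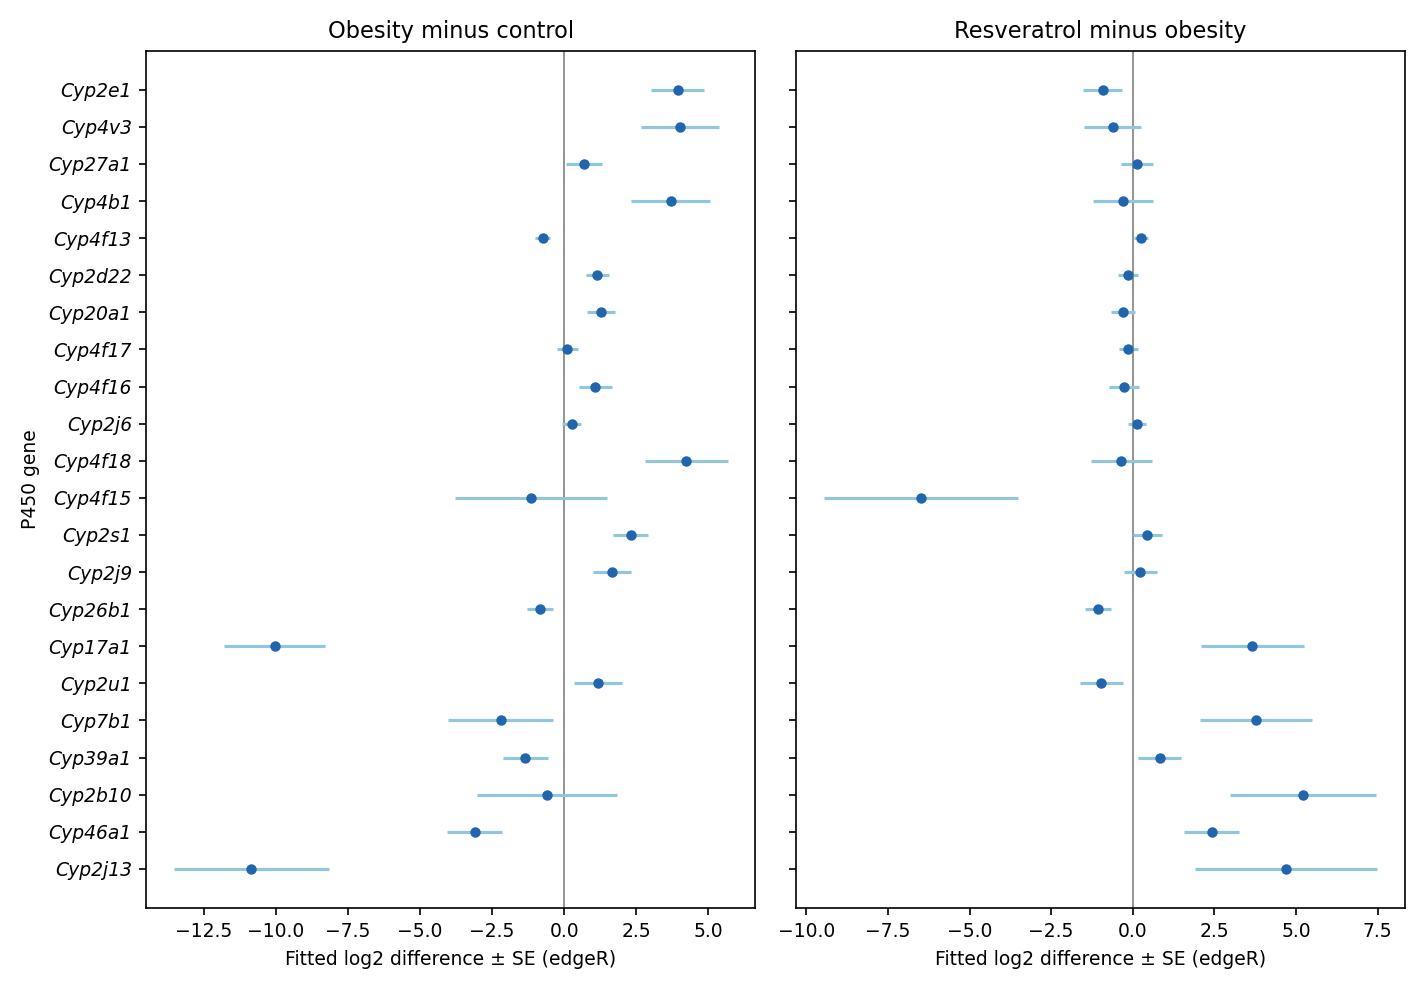
Log2 difference of each of the 22 upper-tier P450 genes in the obesity against control and resveratrol against obesity comparisons, with bars of 1 SE from edgeR's fit; for Cyp2j13 and Cyp17a1, with 0 and 1 count in the obesity pair, the fitted point depends on the prior count. Cyp2e1 lies at 3.94 and -0.93, Cyp26b1 at -0.84 and -1.07, and no gene passed after adjustment.

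With resveratrol against obesity, both from mice fed the high-fat diet, no member passed either. edgeR called 0 of 43 members after adjustment and 0.0% of all genes, and the smallest adjusted p was 0.899. DESeq2 called 0 of 27 members and 1.18% of all genes. At an unadjusted p under 0.05 there was 1 member of 43, Cyp46a1, against 2.34% of all genes. It was higher (1.92% of all genes), and 0 members were lower at that p (0.428%). By sign, 22 members were higher and 19 lower, against 52.8% and 45.1% of all genes, and without a filter on low counts 0 of 67 members were called, with 0.0574% of all genes. The resveratrol libraries both lay above the obesity pair for 8 members (16.9% of all genes) and both below it for 4 (16.7%). Within the 22 upper-tier genes, the pairs overlapped for 16. Cyp46a1, Cyp17a1, Cyp4f13 and Cyp2s1 lay higher without overlap, the last by under 0.01 CPM between its nearest libraries, and Cyp26b1 and Cyp2u1 lower. For Cyp17a1 the nearest libraries were resveratrol 2, with 2 counts (0.0778 CPM), and obesity 2, with 1 count (0.0476 CPM). Both values lay below the floor.

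By size, Cyp46a1 differed by 2.42 on the log2 scale (SE 0.844, p 0.0436), Cyp2b10 by 5.20 (SE 2.24, p 0.0789), Cyp17a1 by 3.66 (SE 1.59, p 0.0801) and Cyp7b1 by 3.77 (SE 1.70, p 0.0892), all higher with resveratrol at an adjusted p of 0.899. Cyp2j13, at 6 counts in resveratrol 1 and 0 in the other 3 libraries, had p 0.188. On the lower side, Cyp26b1 differed by -1.07 (SE 0.395, p 0.0508), Cyp4f15 by -6.49 (SE 2.98, p 0.0927), Cyp2e1 by -0.93 (SE 0.609, p 0.200), Cyp2u1 by -0.96 (SE 0.652, p 0.211) and Cyp20a1 by -0.30 (SE 0.371, p 0.456). Several of these rest on 1 library. Without resveratrol 1, Cyp7b1 was at 0.05, Cyp46a1 at 1.28, Cyp17a1 at 1.48, Cyp2u1 at -0.41, Cyp2e1 at -0.53 and Cyp20a1 at 0.051, and Cyp2b10 had too few counts to be tested. Without resveratrol 2, Cyp2e1 was at -1.44, Cyp2u1 at -1.85 and Cyp20a1 at -0.75. Without obesity 2, Cyp2e1 was at -0.13, Cyp20a1 at -0.17 and Cyp17a1 at 6.19, and without obesity 1, Cyp2e1 was at -1.43. Cyp4f15 turned to 4.45 without obesity 1, the 1 obesity library that had it. Cyp26b1, in contrast, was near 50% of its obesity mean in both resveratrol libraries.

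Set against the obesity mean, the resveratrol libraries went separate ways. For the 16 members that averaged at least 5 CPM under obesity, the median was 56.4% in resveratrol 1 and 110% in resveratrol 2, beside 44.6% in the control library. Over all 12094 tested genes that averaged as much under obesity, the medians were 91.1%, 98.1% and 79.1%. Choosing genes by a high obesity mean tends to lower such percentages, and it leaves out the 6 upper-tier genes that averaged less under obesity, Cyp17a1, Cyp2b10, Cyp2j13, Cyp39a1, Cyp46a1 and Cyp7b1, so these medians are a description and not a test. In resveratrol 1, 13 of the 16 lay below the obesity mean (57.7% of all such genes), and in resveratrol 2 it was 4 (54.0%): Cyp2e1, Cyp2u1, Cyp26b1 and Cyp4f15. Cyp4v3 was at 18.5% in resveratrol 1 and 112% in resveratrol 2, Cyp4b1 at 21.4% and 141%, and Cyp27a1 at 65.0% and 156%. Cyp2e1 was below the obesity mean in both, at 36.6% and 68.5%, as was Cyp2u1, at 27.6% and 74.8%, and Cyp26b1, at 50.4% and 44.8%. The median adipocyte marker was at 25.4% and 115% in the same libraries, and the median macrophage marker at 20.4% and 101%. Libraries of the resveratrol pair differed by at least 4-fold for 6 of the 22 upper-tier genes (Cyp17a1, Cyp2b10, Cyp4b1, Cyp4f18, Cyp4v3 and Cyp7b1), beside 18.3% of all genes that reached 5 CPM.

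**Figure D5:**
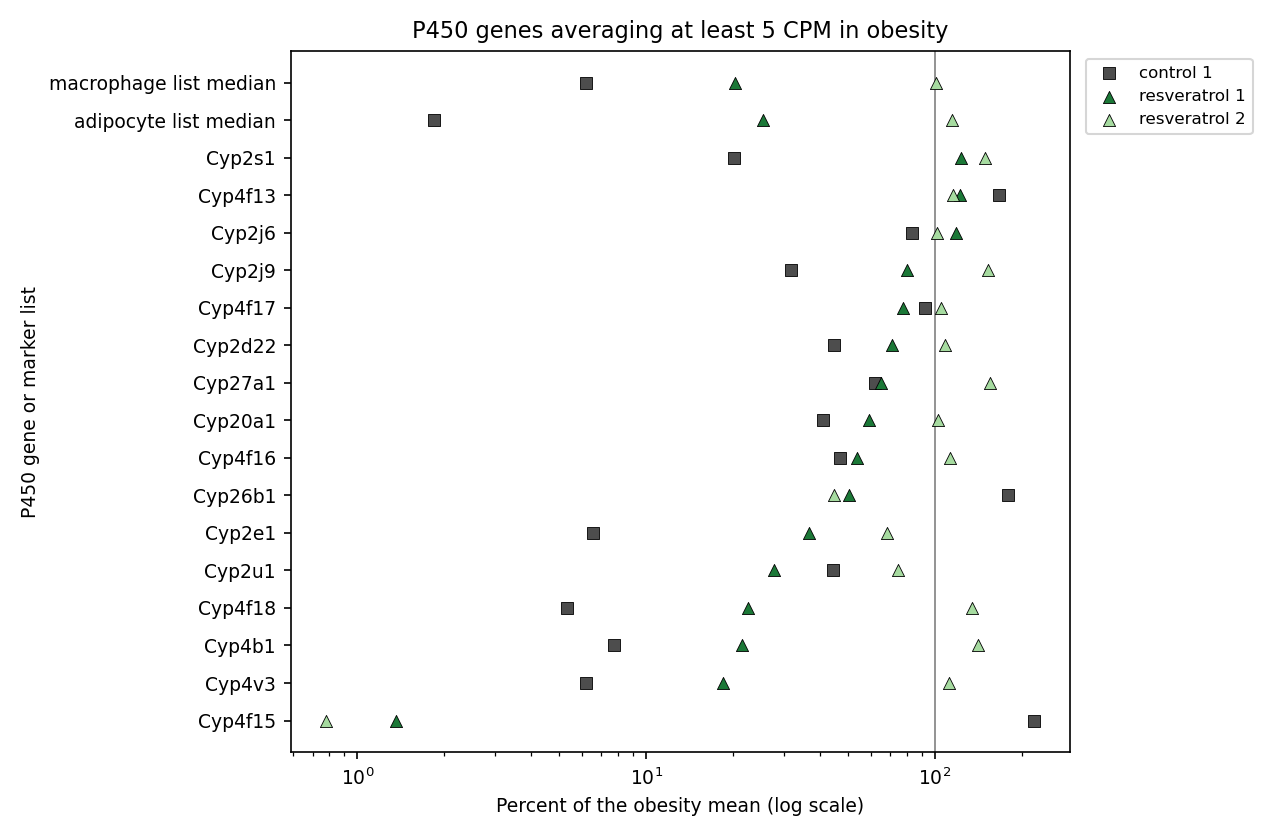
Level of the 16 P450 genes that averaged at least 5 CPM under obesity, as a percentage of the mean of the obesity pair (log axis), in the control library and each resveratrol library, with the medians of the adipocyte and macrophage marker lists at the top. Resveratrol 1 has a median of 56.4% and resveratrol 2 of 110%, and Cyp26b1 lies at 50.4% and 44.8%.

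The number of calls differed with single libraries here too. Without resveratrol 2, edgeR called 11 of 40 members and 19.5% of all genes. Those were Cyp17a1, Cyp2b10, Cyp2j13, Cyp46a1 and Cyp7b1 as higher and Cyp2c70, Cyp2u1, Cyp4b1, Cyp4f18, Cyp4f39 and Cyp4v3 as lower. That fit sets resveratrol 1 alone, the library with 53642 CPM of smooth muscle markers, against the obesity pair, and it assumes that the lone library varies like the others. Without resveratrol 1, 0 of 42 members and 0.136% of all genes were called.

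Resveratrol against control shares its libraries with both comparisons above, so its values are not independent of theirs. edgeR called 0 of 43 members and 0.0% of all genes, with 7 members at an unadjusted p under 0.05 (18.5% of all genes), 4 higher (10.5%) and 3 lower (8.05%). DESeq2 called 9 of 32 members and 14.5% of all genes, limma-voom 0 of 43 members and 0.323%, and the fit without a filter on low counts 1 of 67 members and 3.84%. By sign, 23 of 43 members were higher, against 51.4% of all genes. The resveratrol pair lay above the control library for 14 members (37.7% of all genes) and below it for 15 (41.0%). Higher by smallest p were Cyp2s1 (log2 difference 2.75, SE 0.635, adjusted p 0.235), Cyp2e1 (3.01, SE 0.870, adjusted p 0.245), Cyp2j9 (1.88, SE 0.676, adjusted p 0.267) and Cyp4f18 (3.88, SE 1.41, adjusted p 0.269, and 2.11 without resveratrol 2), and Cyp2c23 was at least 12.6-fold higher against the floor (adjusted p 0.275). Lower were Cyp17a1 (-6.38, SE 1.42, adjusted p 0.232), Cyp26b1 (-1.91, SE 0.459, adjusted p 0.237), Cyp2j13 (-6.17, SE 1.95, adjusted p 0.268), Cyp4f15 (-7.63, SE 3.22, adjusted p 0.294) and Cyp4f13 (-0.48, SE 0.261, adjusted p 0.350). Without resveratrol 1 the fit called 14 of 42 members (30.7% of all genes), and without resveratrol 2 it called 8 of 40 (17.2%).

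Genes that work beside the P450 enzymes were read the same way, and none passed after adjustment in any comparison. Over all tested genes, 46.9% were higher and 52.7% lower under obesity than in control, 12.6% and 11.7% at an unadjusted p under 0.05, and with resveratrol against obesity these shares were 52.8%, 45.1%, 1.92% and 0.428%. The counts below are to be read beside them. Of 8 redox partners, 7 were higher under obesity than in control and 1 lower, with 2 of the higher at an unadjusted p under 0.05. Fdxr, which feeds the mitochondrial enzymes such as Cyp27a1, had 6.97 CPM in the control library, 27.7 and 24.9 CPM under obesity, and 22.9 and 20.8 CPM under resveratrol (obesity against control, log2 difference 1.91, SE 0.347, adjusted p 0.176). Por stood at 72.4 CPM in the control library, 212 and 395 CPM under obesity, and 130 and 426 CPM under resveratrol. Against obesity, 7 of the 8 were lower with resveratrol and 1, the heme-binding Pgrmc1, higher, with none at an unadjusted p under 0.05. Fdxr differed little among the 4 high-fat libraries, unlike Por.

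Of 12 genes of heme synthesis and breakdown, 8 were higher under obesity and 4 lower, with 4 and 2 at an unadjusted p under 0.05. Hmox1, which breaks down heme, came to 7.88 CPM in the control library, 165 and 155 CPM under obesity, and 39.3 and 91.2 CPM under resveratrol. Alad, an early step of synthesis, had 260 CPM in the control library, 53.9 and 48.6 CPM under obesity, and 89 and 63.9 CPM under resveratrol. With resveratrol, 5 were higher and 7 lower than under obesity, none at an unadjusted p under 0.05.

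Of 18 nuclear receptors that regulate P450 genes, 14 were tested, and 9 were higher and 5 lower under obesity, with 4 and 1 at an unadjusted p under 0.05. Pparg, the master regulator of adipocytes, stood at 1.64 CPM in the control library, 129 and 168 CPM under obesity, and 20.9 and 144 CPM under resveratrol. Nr1h3, the oxysterol receptor LXR-alpha, came to 6.28 CPM in the control library, 163 and 159 CPM under obesity, and 22.4 and 142 CPM under resveratrol. Both had the order of libraries seen for Cyp4v3 and Cyp4b1. With resveratrol, 10 were higher and 4 lower than under obesity, none at an unadjusted p under 0.05.

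Of 13 epoxide hydrolases and other oxidising enzymes, 9 were higher and 4 lower under obesity, with 4 and 1 at an unadjusted p under 0.05. Ephx2, the soluble hydrolase that inactivates epoxides made by the Cyp2c and Cyp2j enzymes, had 37.9 CPM in the control library, 446 and 290 CPM under obesity, and 110 and 150 CPM under resveratrol. It lay below the obesity pair in both resveratrol libraries (log2 difference -1.5, SE 0.385, adjusted p 0.899). Fmo2, a flavin monooxygenase, stood at 33.9 CPM in the control library, 30.7 and 31.2 CPM under obesity, and 67.7 and 102 CPM under resveratrol (log2 difference 1.46, SE 0.300, adjusted p 0.899). With resveratrol, 8 of the 13 were higher and 5 lower than under obesity, with 2 and 1 at an unadjusted p under 0.05. Of 9 steroidogenic partners, 6 were tested, with 2 higher and 4 lower under obesity. Hsd11b1, which regenerates active glucocorticoid in fat, came to 2.02 CPM in the control library, 31.4 and 51.7 CPM under obesity, and 30.3 and 60.7 CPM under resveratrol (obesity against control, log2 difference 4.36, SE 0.749, adjusted p 0.175).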

How the data were processed

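Per the labels' protocols, total RNA of visceral adipose tissue was made into stranded poly-A libraries and sequenced in pairs. Per the submitters' processing notes, the authors used FastQC and featureCounts with build GRCm39. Which aligner, versions and strand setting they used is not given in the sources used here. Deposited values are raw counts, 1 whole number per gene and library, not normalised by the authors. Symbols were matched for 65.7% of the 78334 identifiers. Gene order, exon lengths, shared transcript windows and promoters came from GENCODE and RefSeq tables on GRCm38, so no gene coordinates on the authors' build are given.

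The counts were fitted in R 4.3.3 with edgeR 4.0.16: filterByExpr by group (minimum count 10, minimum total 15) left 24779 genes, TMM factors scaled the 5 libraries, and a robust quasi-likelihood fit gave F tests adjusted with Benjamini-Hochberg over all of them at 0.05. The fit takes the spread of the lone control library from the paired groups. Each SE was obtained from the log2 difference and its F value. For a gene without counts, 3 counts served as the floor (0.105 to 0.157 CPM, by library). Intervals are exact Poisson or conditional binomial ones at 95% and cover counting error only. Per comparison, up to 5 members a direction with the smallest p and a mean of at least 1 CPM were named, members of at least 5 CPM in a library were given in every library, and up to 3 genes of each pathway list. Some further genes (Por, Aldh1a3, the steroidogenic and urothelium markers) were named after their values were seen. Alternatives were DESeq2 1.42.0, limma-voom (limma 3.58.1), other scaling and filters, a replicate block and leaving out libraries. The edgeR fit of all 5 libraries was also run on simulated counts for each comparison, with the spread taken from these data. The alternatives were not run on simulated counts. The members and lists were chosen with earlier results of these data known. Marker lists not given in full above were also summed. Brown adipocyte markers came to 204 CPM in obesity 1 and 2.96 to 13.3 CPM in the other 4 libraries. Over the 5 libraries, fibroblast and progenitor markers came to 429 to 2116 CPM and mesothelium markers to 18.5 to 214 CPM.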

Additional observations from a re-analysis of the deposited data

How the results depend on the processing

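Depth was 19540961 counts or more per library, so genes near 0.157 CPM rest on about 3 counts, and the control group had 1 library. For obesity against control, edgeR and limma-voom each called 0 genes and 0 P450 genes, and in edgeR 6018 genes had an unadjusted p under 0.05. The calls were 2575 genes and 4 P450 genes without a filter, 9269 and 17 with only the groups compared, 4431 and 10 with DESeq2, and 0 to 9227 and 0 to 17 with 1 library left out. Both numbers were 0 for resveratrol against obesity too, with 581 genes at an unadjusted p under 0.05. There, 25 genes were called without a filter, 208 with DESeq2, and 0 to 4758 with 1 library left out, with 0 to 11 P450 genes. Without control 1 and resveratrol 1 together, a setting chosen after seeing the data, it was 66 genes and 0 P450 genes. For resveratrol against control, edgeR called 0, with 4596 at an unadjusted p under 0.05. The calls were 1671 genes and 1 P450 gene without a filter, 80 and 0 with limma-voom, 3031 and 9 with DESeq2, and 0 to 7469 and 0 to 14 with 1 library left out. These are numbers of calls, and the cause of their spread was not tested.

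The summed P450 level in the control library, 332 CPM, was 352 CPM per plain total and 341 CPM with median-ratio size factors. In resveratrol against obesity, Cyp20a1 turned to 0.050 in the setting chosen after seeing the data. With 1 library left out, its log2 difference ran from -0.75 to 0.051, that of Cyp2j13 from 0 to 5.67 and that of Cyp4f15 from -7.49 to 4.45. Of the other values of named genes under all alternatives, 272 kept their direction and side of the threshold and 62 passed it. The replicate block gave 0 genes and 0 P450 genes called. Across genes, the deviations of obesity 1 and resveratrol 1 from their group means had a correlation of 0.28. With 2 libraries in a group, replicate 2 mirrors replicate 1, so the other pair gives the same value and adds no support. The labels do not say that numbers pair samples.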

Other observations

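Of the 89 genes, 10 had counts in resveratrol 2 and in no other library: Cyp2a5 and Cyp3a11 (7 counts each), Cyp2d40 (6), Cyp2c54 (5), Cyp2c50 and Cyp2j5 (3 each), Cyp2a12 and Cyp2c67 (2 each), and Cyp2j12 and Cyp3a25 (1 each). Most are known as liver genes. In the control library the same held for 2 genes, Cyp2b19 and Cyp2j11, and in the other 3 libraries for 0. The count of members with at least 1 read was 59 in resveratrol 2 and 42 to 47 elsewhere. The matching shares over all genes were not computed, so these numbers cannot be read as particular to the P450 family. Library totals were 26486024 counts in resveratrol 2, 27026597 in the control library and 19540961 to 21690850 in the others. Summed over 9 hepatocyte markers, resveratrol 2 stood at 50.1 CPM and the others at 0.872 to 16.0 CPM. None of the 9 was at 0 in resveratrol 2, while 7 were in the control library and 2 in each of the other 3. Albumin (Alb) was at 35.7 CPM in resveratrol 2, 9.29 and 10.1 CPM in the obesity pair, 2.73 CPM in resveratrol 1 and 0 in the control library. With 1 to 7 counts a gene, these values lie at or near the floor, and the part of hepatocyte RNA in them was not tested.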
